A study of Oryctolagus cuniculus with 9 samples.

Results

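The genes described here are 6 genes of osteoblasts and of the mineralized matrix, IBSP, SPP1, DMP1, BGLAP, ALPL and SPARC, taken by symbol from the 14870 genes in the deposited tables. All 6 were present, and all 6 had enough reads to be tested in each comparison. They were measured by RNA sequencing in 9 libraries of rabbit knee cartilage, 3 from healthy cartilage, 3 from trochlear defects that had been left empty and 3 from trochlear defects that had been filled with a collagen scaffold carrying chondroitin sulphate (CLCS). The question was how far the tissue in each kind of defect differed from healthy cartilage, and from the other, in the genes that bone-forming cells use.

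All groups came from New Zealand rabbits aged 4 to 5 months at surgery, with no genetic alteration named in the labels. In the study's methods the scaffold went into the right knee and the left defect was left untreated, and tissue was harvested at 12 weeks. The methods call the defect a full-thickness osteochondral one, that is, of the cartilage and the bone below it. The study's abstract and introduction call it chondral, so that whether bone was removed is not settled by its wording. The healthy tissue had no defect, and the study's scheme draws it from the condyle and not from the trochlear groove, so that injury and site in the joint cannot be told apart in any comparison with healthy cartilage. The scheme draws the tissues from the same rabbit, whereas the labels number the libraries of each group 1 to 3 without naming an animal, and p-values therefore measure the spread between these libraries.

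Osteoblasts lay down a matrix of type I collagen and then load it with calcium phosphate. ALPL frees phosphate for the growing mineral, and the acidic phosphoproteins IBSP, SPP1 and DMP1, with the vitamin K-dependent BGLAP, bind calcium or hydroxyapatite in that matrix. Healthy articular cartilage stays unmineralized above a thin calcified layer, and chondrocytes of that deep layer also express some of these genes.

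IBSP, SPP1, DMP1 and BGLAP had higher means in both kinds of defect than in healthy cartilage, by 2.53- to 5.10-fold in untreated defects and by 2.58- to 5.06-fold in CLCS defects. Of these 8 differences, that of IBSP in CLCS defects passed the test over all genes, and that of BGLAP in CLCS defects passed it as well when the replicate number was a block (limma adjusted p = 0.043). ALPL differed less, and the SPARC means were 0.801 and 0.999 times the healthy mean. Between CLCS and untreated defects no member passed, and the intervals of the differences reached past 1 on the log2 scale for all 6 genes. A change in the share of the cells that express a gene and a change in its RNA per cell cannot be told apart in these bulk samples.

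**Figure D1:**
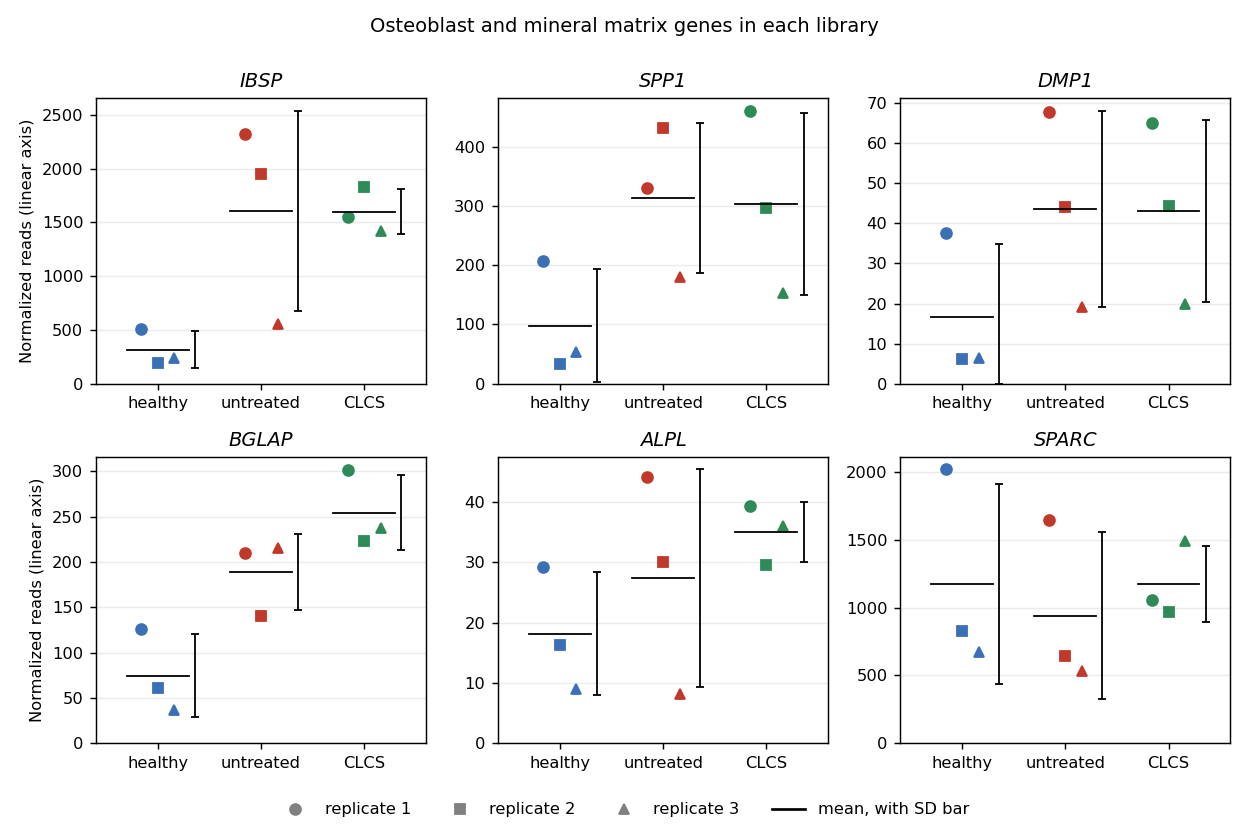
Normalized reads (linear axes starting at 0) of the 6 genes in the 9 libraries, with the replicate number as the marker shape, the group mean as a line and the SD as a bar, which is cut at 0 for DMP1 in healthy tissue. IBSP and BGLAP in both kinds of defect lie above every healthy library, and healthy replicate 1 is the highest healthy library for all 6 genes.

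The libraries held 724986 to 1226408 reads in genes, and the most abundant gene, ENSOCUG00000023467, took 1.49 to 49.4% of them. The study reports many more aligned read pairs per library than these reads in genes, and the cause of the gap was not tested. The 6 genes together held 0.118 to 0.414% of the reads in healthy tissue, 0.23 to 0.641% in untreated defects and 0.22 to 0.431% in CLCS defects. Values are given in normalized reads, that is reads divided by the size factor of the library, so that levels compare between libraries but not between genes of different length. Fold changes and their tests are on the scale of log2(normalized reads + 1), and a gene was called when its limma p-value, adjusted over all genes tested by the Benjamini-Hochberg method, was under 0.05. Several libraries stood apart. In untreated replicate 3, COL2A1, the main collagen of cartilage, had 505 reads against 4061 and 11191 in the other untreated libraries, and the macrophage and osteoclast adaptor TYROBP had 166 reads against 9 and 17. CLCS replicate 3 had 20508 reads of COL2A1 against 8682 and 9229 in the other CLCS libraries, 49.4% of its reads came from 1 gene, and its share of reads in the 6 genes was the lowest of the CLCS libraries. Healthy replicate 1 was the highest of the healthy libraries for every member, and values that shift most without 1 of these libraries are also given without it.

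IBSP, bone sialoprotein, is a secreted phosphoprotein that nucleates hydroxyapatite and binds cells through an RGD motif. It stood at 512, 192 and 243 normalized reads in healthy replicates 1 to 3, at 2323, 1946 and 559 in untreated defects and at 1548, 1828 and 1417 in CLCS defects. Every defect library was above every healthy one, although untreated replicate 3 exceeded healthy replicate 1 by little. The means were 315 ± 172 in healthy tissue, 1609 ± 929 in untreated defects and 1598 ± 210.2 in CLCS defects (SD, n = 3 each), so that the CLCS libraries varied least relative to their mean. In CLCS defects IBSP rose by 2.46 (SE 0.40) on the log2 scale over healthy tissue, with an limma adjusted p of 0.0277. The difference of untreated defects from healthy tissue was 2.24 (SE 0.63) with a limma adjusted p of 0.125, and the untreated libraries were more spread than those of the other groups. Without untreated replicate 3 that difference was 2.88, with an limma adjusted p of 0.0555.

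The call of IBSP in CLCS defects rested on the full set of libraries. Its log2 fold change stayed between 2.17 and 2.87 when each library was left out in turn, whereas it passed the threshold in 2 of the 6 fits. The limma adjusted p was 0.0246 without healthy replicate 1 and 0.0482 without healthy replicate 2, but 0.0893 without healthy replicate 3, and 0.119, 0.0887 and 0.0799 without CLCS replicate 1, 2 or 3.

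SPP1, osteopontin, is a phosphoprotein that inhibits crystal growth, anchors osteoclasts to bone and is also made by macrophages. It stood at 207, 32.5 and 54.2 normalized reads in healthy tissue, at 330.1, 431 and 179.5 in untreated defects and at 459.8, 296 and 153 in CLCS defects. The third library of each defect group lay below healthy replicate 1, so that the groups overlapped, while all defect libraries exceeded the other healthy libraries. The log2 fold change against healthy tissue was 2.02 (SE 0.69, limma adjusted p = 0.191) in untreated defects. In CLCS defects it was 1.93 (SE 0.71, limma adjusted p = 0.218). Without healthy replicate 1 these values were 2.78 (limma adjusted p = 0.0665) and 2.68 (limma adjusted p = 0.0692), so that SPP1 was not called with or without that library.

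DMP1, a phosphoprotein of osteocytes that regulates mineral formation and phosphate balance, had few reads. It stood at 37.7, 6.09 and 6.32 normalized reads in healthy tissue, at 67.7, 44.0 and 19.0 in untreated defects and at 65.1, 44.3 and 19.9 in CLCS defects. The order of the replicates was alike in both defect groups, and the third library of each lay between healthy replicate 1 and the other healthy libraries. With 6 to 40 reads in healthy tissue, DMP1 reached 10 reads in only 1 of 3 healthy libraries, and it passed the filter on low counts through the defect groups. The log2 fold change against healthy tissue was 1.65 (SE 0.76, limma adjusted p = 0.342) in untreated defects. In CLCS defects it was also 1.65 (SE 0.73, limma adjusted p = 0.295). Without healthy replicate 1 these values were 2.46 (limma adjusted p = 0.111) and 2.46 (limma adjusted p = 0.0787).

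BGLAP, osteocalcin, is a small protein of mature osteoblasts that binds hydroxyapatite. It stood at 126, 60.9 and 37.0 normalized reads in healthy tissue, at 210.3, 140.03 and 216 in untreated defects and at 302, 223 and 238 in CLCS defects. No group overlapped with another, with healthy tissue lowest and CLCS defects highest. BGLAP was the only member whose value in untreated replicate 3 was above the mean of the other untreated libraries, by 0.33 on the log2 scale. The log2 fold change against healthy tissue was 1.48 (SE 0.48, limma adjusted p = 0.168) in untreated defects. In CLCS defects it was 1.92 (SE 0.45, limma adjusted p = 0.072). With the replicate number as a block the limma adjusted p of BGLAP in CLCS defects was 0.043, and the number of members called in that comparison went from 1 to 2. Without healthy replicate 1 the same difference was 2.38 with an limma adjusted p of 0.0351. In the RefSeq annotation of another rabbit assembly, mOryCun1.1, BGLAP overlaps PAQR6, a membrane progestin receptor, and the strand setting of the read counting was not given in the sources used here. PAQR6, named for this overlap after its values were seen, had 13 to 67 reads in healthy tissue, 58 to 265 in untreated defects and 37 to 271 in CLCS defects, so that its groups overlapped. Its means were 36.5, 107.1 and 149.4 normalized reads in that order of groups, which is also the order of the BGLAP means. The part of reads from one gene in the value of the other was not tested. In the same annotation IBSP overlaps TRNAM-CAU, and SPARC overlaps LOC138850196 and LOC138850197, whose part was not tested either.

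ALPL, tissue-nonspecific alkaline phosphatase, sits on the osteoblast membrane and on matrix vesicles and hydrolyses pyrophosphate, an inhibitor of mineral. It stood at 29.2, 16.2 and 9.03 normalized reads in healthy tissue, at 44.1, 30.0 and 8.16 in untreated defects and at 39.3, 29.5 and 36.1 in CLCS defects. The untreated libraries spanned the whole healthy range, and the lowest of the 9 values was that of untreated replicate 3, whereas all CLCS libraries were just above healthy replicate 1. The log2 fold change against healthy tissue was 0.43 (SE 0.67, limma adjusted p = 0.826) in untreated defects. In CLCS defects it was 1.04 (SE 0.42, limma adjusted p = 0.265). ALPL had 9 to 56 reads per library. Without untreated replicate 3 the difference of untreated defects from healthy tissue was 1.11 (limma adjusted p = 0.4135), and ALPL was not called in either case.

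SPARC, osteonectin, is a collagen-binding glycoprotein that was first found in bone but is made by many connective tissue cells, chondrocytes and fibroblasts among them. It stood at 2023, 827 and 670.4 normalized reads in healthy tissue, at 1647, 640.1 and 532 in untreated defects and at 1059, 965 and 1493 in CLCS defects. The 3 groups overlapped, and the first library was the highest in both healthy tissue and untreated defects. The log2 fold change against healthy tissue was -0.33 (95% interval -1.69 to 1.03, limma adjusted p = 0.855) in untreated defects. In CLCS defects it was 0.15 (95% interval -0.91 to 1.20, limma adjusted p = 0.9). The sign of both differences turned when 1 library was left out, to 0.15 in untreated defects without healthy replicate 1 and to -0.17 in CLCS defects without healthy replicate 3.

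In untreated defects against healthy tissue 0 of the 6 members were called, where 2.55% of 3496 genes were called in either direction and 1.34% were called higher. At an unadjusted p under 0.05, 3 members were higher (IBSP, BGLAP and SPP1), against 8.64% of all genes higher at that level. IBSP and BGLAP did not overlap with healthy tissue, and 11.3% of all genes were higher without overlap. The median log2 fold change of the members was 1.56, beside -0.02 over all genes tested. The share of tested genes with a log2 fold change as high or higher was 1.89% for IBSP, 2.46% for SPP1, 3.75% for DMP1, 4.61% for BGLAP, 22.7% for ALPL and 71% for SPARC. The first 4 genes, the highest of the 6, were thus near the top of the table by size, though not by their test. The members were chosen with earlier results of these data known. These ranks and medians, here and for CLCS defects, are therefore a description only.

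In CLCS defects against healthy tissue 1 of the 6 members was called, IBSP, where 3.16% of 3294 genes were called in either direction and 2.13% were called higher. At an unadjusted p under 0.05, 4 members were higher (IBSP, BGLAP, SPP1 and ALPL), against 9.14% of all genes. IBSP, BGLAP and ALPL were above healthy tissue without overlap, as were 12.2% of all genes. The median log2 fold change of the members was 1.79, beside -0.08 over all genes tested. Both comparisons use the same healthy libraries, so that a high or low healthy value moves both in the same direction, and the likeness of their fold changes is no second observation.

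**Figure D2:**
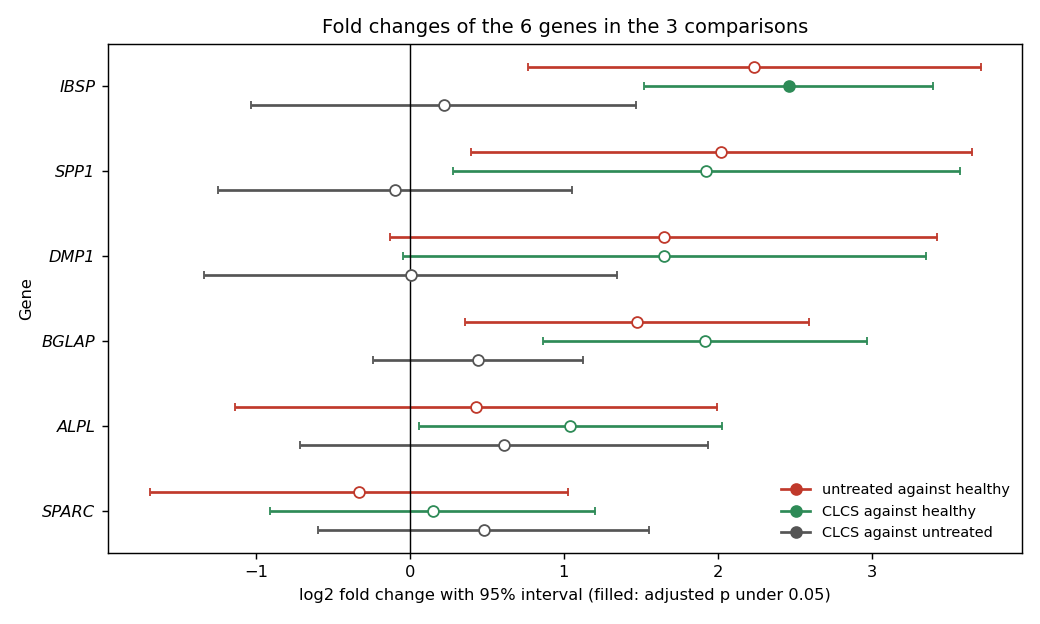
Log2 fold change of each gene in the 3 comparisons (horizontal axis), with its 95% limma interval as a bar and a filled point for an adjusted p under 0.05. IBSP in CLCS against healthy tissue is the one filled point, at 2.46, and the intervals of CLCS against untreated defects all include 0.

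Between CLCS and untreated defects no member passed the test. The log2 fold change of CLCS over untreated defects was 0.22 for IBSP (95% interval -1.03 to 1.47). It was -0.10 for SPP1 (-1.25 to 1.05) and 0.00 for DMP1 (-1.34 to 1.35). The means of these 3 phosphoprotein genes were 0.966 to 0.993 times those of untreated defects, while the intervals allow differences past 1 on the log2 scale in either direction. The difference was 0.61 for ALPL (-0.72 to 1.94) and 0.48 for SPARC (-0.59 to 1.55). For BGLAP it was 0.44 (SE 0.29, 95% interval -0.24 to 1.12). BGLAP was the 1 member whose CLCS libraries were all above the untreated ones, as were 3.82% of all genes. With limma 0 of the 6 members and 0 of 3275 genes were called (0%), 0 members and 95 genes (2.9%) had an unadjusted p under 0.05, and edgeR and DESeq2 called 0 genes too. The CLCS libraries were closer to each other than the untreated ones for the summed level of the 6 genes, at 3357 to 3473 normalized reads in CLCS defects against 1513 to 4623 in untreated defects and 1020 to 2935 in healthy tissue. Most of this sum came from IBSP and SPARC, and opposite differences of single genes cancel in it. The SD of SPP1 was 50.6% of its mean in CLCS defects and 40.4% in untreated defects, while each other member varied less in CLCS defects.

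In a pair of libraries most of the members lay on the same side of the rest of their group. Healthy replicate 1 exceeded the mean of the other healthy libraries by 2.42 on the log2 scale for DMP1, 2.28 for SPP1, 1.44 for SPARC, 1.39 for BGLAP, 1.24 for IBSP and 1.20 for ALPL, beside a median of -0.04 over 3812 genes. Untreated replicate 3 differed from the mean of the other untreated libraries by -2.03 for ALPL, -1.93 for IBSP, -1.47 for DMP1, -1.07 for SPP1 and -0.95 for SPARC, but by 0.33 for BGLAP, beside a median of -0.02. The CLCS libraries showed no such common order, since IBSP was highest in replicate 2, SPARC in replicate 3 and the other members in replicate 1.

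The values of the other members were also divided by that of SPARC in the same library, an idea that came from seeing them. IBSP had 0.253, 0.232 and 0.363 reads per SPARC read in healthy tissue, 1.41, 3.04 and 1.05 in untreated defects and 1.46, 1.89 and 0.949 in CLCS defects. The lowest defect library thus stood well above the highest healthy one, and healthy replicate 1 no longer stood apart from the other healthy libraries. BGLAP had 0.0624, 0.0736 and 0.0553 reads per SPARC read in healthy tissue, 0.128, 0.219 and 0.405 in untreated defects and 0.285, 0.231 and 0.159 in CLCS defects, again without overlap. SPP1 had 0.0393 to 0.102 in healthy tissue, 0.2004 to 0.673 in untreated defects and 0.103 to 0.434 in CLCS defects, where the lowest CLCS library was level with the highest healthy one. DMP1 in untreated defects, at 0.0358 to 0.0688, was above the healthy range of 0.00736 to 0.0186, whereas CLCS replicate 3, at 0.0133, lay within it. ALPL in CLCS defects, at 0.0242 to 0.0371, was above the healthy range of 0.0135 to 0.0196, whereas untreated replicate 3, at 0.0153, lay within it. In all, 4 of 5 ratios were above healthy tissue without overlap in untreated defects and 4 of 5 in CLCS defects, where 4.32% and 4.8% of all genes had such a ratio. The count in CLCS defects includes SPP1, at 0.1026 against 0.1025 in healthy tissue. SPARC was taken as divisor after its values were seen and had the lowest fold change of the members in both comparisons. These counts are therefore a description only. Between CLCS and untreated defects it was 0 of 5, beside 0.367% of all genes. A ratio shows unequal change of both genes and not that SPARC itself stayed level.

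**Figure D3:**
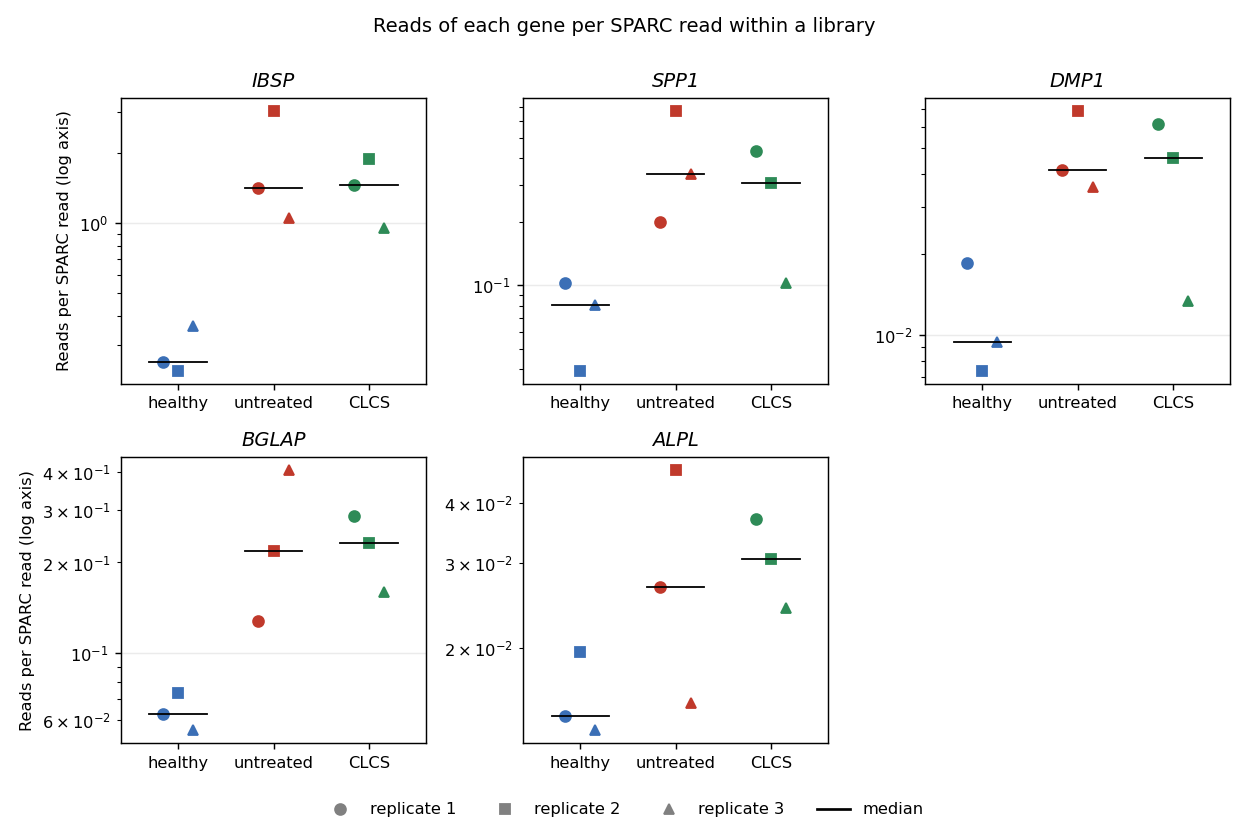
Reads of each gene per SPARC read in the same library (log axes), with the replicate number as the marker shape and the group median as a line. IBSP lies between 0.232 and 0.363 in healthy tissue and between 0.949 and 3.04 in the defects, and CLCS replicate 3 is the lowest CLCS library for all 5 genes.

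Of the genes with a symbol, those whose profile over the 9 libraries was nearest to each member were found by the root mean square difference of their log2 values, each centred on its healthy mean, over 3117 genes. The nearest to IBSP was COL22A1, a collagen of tissue junctions, at 0.38, followed by SPNS1 at 0.57 and PRMT7 at 0.58. COL22A1 stood at 4.06 to 10.4 normalized reads in healthy tissue, at 13.6 to 32.0 in untreated defects and at 28.6 to 53.7 in CLCS defects. It was called in CLCS defects, at 2.62 (SE 0.41, limma adjusted p = 0.0248). Since COL22A1 was chosen for its nearness to IBSP in these same libraries, its call is no separate observation. With 4 to 11 reads in healthy libraries, it passed the filter on low counts through the defect groups. SPP1 and DMP1 were each the nearest gene to the other, at 0.41. SPP1 was followed by COL22A1 at 0.57 and ADAM11 at 0.60, and DMP1 by PTGS1 at 0.47 and RXRB at 0.56. Among all 3811 other genes SPP1 ranked 7 for nearness to IBSP, and IBSP ranked 25 for nearness to DMP1. In the mOryCun1.1 annotation SPP1, MEPE, IBSP, DMP1 and DSPP follow each other as neighbouring protein-coding genes, the cluster of secreted phosphoproteins of bone and dentin. Among the profiles nearest to BGLAP were those of DNAJC17 (0.32) and PLTP (0.47), and those nearest to ALPL were ARHGAP9 (0.38), PPHLN1 (0.48) and NINJ2 (0.49). SPARC, nearest to YEATS2 (0.37), DDX3X (0.37) and PBXIP1 (0.38), was farther from IBSP (2.05), SPP1 (1.86), DMP1 (1.58) and BGLAP (1.53) than from ALPL (0.79). ALPL in turn was nearer to SPARC than to any other member, with SPARC at rank 226 of 3811 for nearness to it. With 9 libraries in 3 groups that share depth and handling, nearness is a description only.

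The genes that work with the members were read from lists by role. Of 14 other genes of bone matrix and osteocytes, 11 were in the tables and 3 had enough reads to be tested. COL1A1 and COL1A2, the chains of type I collagen, rose in both kinds of defect. COL1A1 rose by 3.79 (SE 0.70, limma adjusted p = 0.0398) in untreated defects and by 3.95 (SE 0.65, limma adjusted p = 0.0277) in CLCS defects. COL1A2 rose by 3.68 (SE 0.59, limma adjusted p = 0.0292) and by 3.53 (SE 0.59, limma adjusted p = 0.0288). Type I collagen is made by fibroblasts as well as by osteoblasts. PDPN, podoplanin, a gene of young osteocytes that chondrocytes and other cells also express, differed by -2.00 (limma adjusted p = 0.134) and -2.91 (limma adjusted p = 0.0605), with all defect libraries below all healthy ones.

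Transcripts that define the osteoblast and osteocyte were scarce. Of 12 osteoblast transcription factors, 6 were in the tables and 1 was tested, DLX5, at -1.29 (limma adjusted p = 0.152) in untreated defects and -1.06 (limma adjusted p = 0.344) in CLCS defects. RUNX2 was not among the gene symbols of the tables, so that its level could not be read here. Among genes below the filter, named after their values were seen, the osteoblast factor SP7 had 0 to 3 reads per library. MEPE, a phosphoprotein of osteocytes and the neighbour of IBSP, had 8 reads in healthy replicate 1 and 0 to 2 in all other libraries. PHEX, the osteocyte endopeptidase that limits FGF23, had 0 to 1 read in healthy libraries and up to 6 in untreated and 4 in CLCS defects, and SOST, the osteocyte Wnt inhibitor, had at most 1 read. At the deposited read counts, changes in these genes were not detectable.

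Of 14 genes that promote or inhibit mineralization, 12 were in the tables, and 0 of the 7 tested in untreated defects and 0 of the 6 tested in CLCS defects were called, beside the 2.55% and 3.16% of all genes. The annexin ANXA5, a calcium-binding protein of matrix vesicles, differed by 1.11 and 1.12, and SMPD3, a sphingomyelinase needed for bone mineralization, by 0.54 and 1.45. The pyrophosphate transporter ANKH differed by -0.63 and -0.76, and NT5E, which makes adenosine outside the cell, by -0.53 and -0.60. The median of the list was 0.43 in untreated and 0.09 in CLCS defects, well under that of the 6 members. Of 13 osteoblast receptors and RANK signalling genes, 3 and 4 were tested and 0 were called, with the parathyroid hormone receptor PTH1R at -0.85 (limma adjusted p = 0.168) and -0.40 (limma adjusted p = 0.525). The vitamin D receptor VDR, whose ligand drives BGLAP and SPP1 in osteoblasts, stood at -0.01 and 0.01, without a call.

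Of the receptors that bind the RGD motif of IBSP and SPP1, 2 were tested, ITGB1 at 0.64 and 0.28 and ITGA5 at 0.02 and -0.08, and neither was called. Of the 8 genes of the SPARC family, 5 were tested and 0 were called. SMOC2, a matricellular relative of SPARC, differed by -1.93 (limma adjusted p = 0.0783) in untreated and by -1.55 (limma adjusted p = 0.177) in CLCS defects, with all defect libraries below all healthy ones. SMOC1 differed by -0.80 and -0.04, SPOCK3 by 0.12 and -0.36, and FSTL1 by 0.15 and 0.20.

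**Figure D4:**
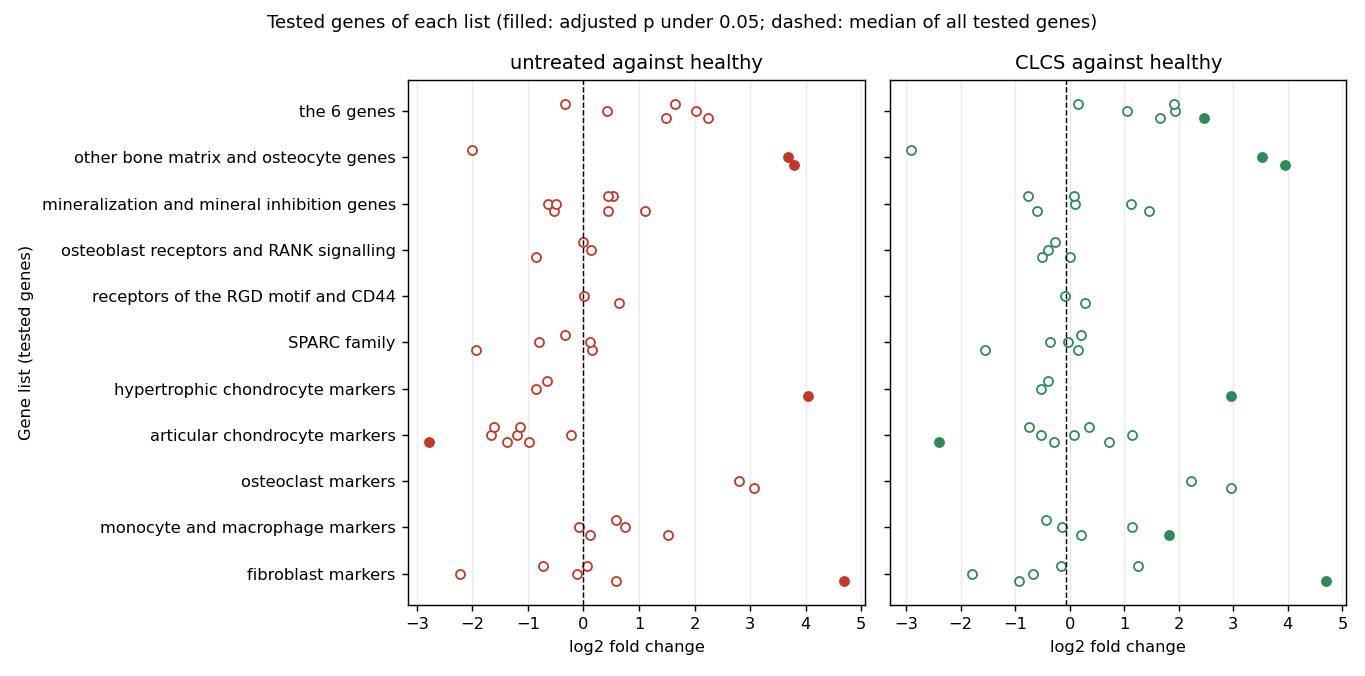
Log2 fold changes of the tested genes of each list in untreated (left) and CLCS (right) defects against healthy tissue, with filled points for an adjusted p under 0.05 and a dashed line at the median of all genes tested. The filled points at the right of both panels are COL1A1, COL1A2, MMP13 and POSTN, those at the left are CILP, and IBSP and TYROBP are filled in the panel of CLCS defects, while TYROBP was not tested in untreated defects.

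Markers of other cells were read as well, and their part in the members' values was not tested. Of 7 markers of hypertrophic chondrocytes, which make IBSP, SPP1 and ALPL in growth cartilage, 3 were tested. MMP13, the collagenase of hypertrophic cartilage that osteoblasts also express, rose by 4.04 (SE 0.32, limma adjusted p = 0.00513) in untreated and by 2.95 (SE 0.31, limma adjusted p = 0.0104) in CLCS defects. MMP13 had 4 to 5 reads in healthy libraries, so that MMP13 and POSTN, a fibroblast marker given below, both passed the filter on low counts through the defect groups, and the size of their fold changes depends on the pseudocount. COL10A1, the defining collagen of hypertrophic chondrocytes, differed by -0.66 (limma adjusted p = 0.537) and -0.53 (limma adjusted p = 0.729). The summed level of the 4 markers in the tables was 118 to 160.2 normalized reads in healthy tissue, 132 to 207 in untreated and 99.2 to 197 in CLCS defects, and these ranges overlapped.

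Of 11 osteoclast markers 9 were in the tables, and their summed level was 7.23 to 36.7 normalized reads in healthy tissue, 72.5 to 169 in untreated and 49.8 to 175 in CLCS defects. These sums did not overlap with healthy tissue, where 11.3% and 12.2% of all single genes were higher without overlap. In the defects most of each sum came from CTSK and MMP9. The mean of NFATC1 was 3.30 normalized reads in healthy tissue, 2.29 in untreated and 2.49 in CLCS defects, while every other marker had higher means in the defects. CTSK, the collagen-degrading protease of osteoclasts, differed by 3.07 (limma adjusted p = 0.098) and 2.23 (limma adjusted p = 0.225). MMP9, a gelatinase of osteoclasts and neutrophils, differed by 2.81 (limma adjusted p = 0.139) and 2.96 (limma adjusted p = 0.108). With 1 to 19 reads of CTSK and 1 to 15 of MMP9 in healthy libraries, both passed the filter on low counts through the defect groups. The lowest CLCS value of CTSK, 17.4 normalized reads, lay below the highest healthy one, 17.9. Of 15 monocyte and macrophage markers 13 were in the tables, with sums of 341 to 604, 531 to 1345 and 817 to 1183 normalized reads. Most of these sums came from 1 gene, STAB1, at 250 to 516, 435 to 1033 and 696 to 1070. TYROBP, with 7 to 10 reads in healthy libraries, rose in CLCS defects by 1.82 (SE 0.27, limma adjusted p = 0.0188). It did not pass the filter on low counts in the comparison of untreated defects, where its mean, raised by replicate 3, was 57.6 normalized reads against 30.4 in CLCS defects. None of the other markers tested in untreated defects, 5 in all, was called, from GPNMB at -0.09 to CSF1R at 1.53 (limma adjusted p = 0.135). In CLCS defects no marker but TYROBP was called. STAB1 stood there at 1.15 (limma adjusted p = 0.152), ITGAM at 0.20, CD68 at -0.14 and GPNMB at -0.43. Of 15 marrow and erythroid markers 5 were in the tables, and they summed to 5.07 to 15.4, 3.63 to 9.45 and 5.17 to 8.72 normalized reads. The highest of these values was thus in healthy tissue and all were near 0.

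Of 11 fibroblast markers 9 were in the tables and 6 were tested. POSTN, periostin, a matrix protein of periosteum and scar tissue, rose by 4.69 in both untreated (SE 0.74, limma adjusted p = 0.0286) and CLCS defects (limma adjusted p = 0.0168), with 0 to 7 reads in healthy libraries, while DCN, decorin, differed by -2.22 and -1.79 without a call. Of 9 endothelial markers 1 was tested, ESAM, at -0.29 and -0.33. Of 15 markers of articular chondrocytes, the labelled tissue, 10 were in the tables and 8 were tested. CILP, a protein of the middle cartilage zone, fell by 2.78 (SE 0.50, limma adjusted p = 0.0381) in untreated and by 2.39 (SE 0.43, limma adjusted p = 0.0361) in CLCS defects. The defining genes COL2A1 and ACAN, the core protein of aggrecan, were present in every library. COL2A1 stood at 6874 to 8610 normalized reads in healthy tissue, at 458 to 8816 in untreated defects and at 8971 to 25534 in CLCS defects, and ACAN at 307 to 574, 99.7 to 280 and 248 to 524. The median of the 8 tested markers was -1.29 in untreated and -0.11 in CLCS defects, beside 1.56 and 1.79 for the 6 members.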

How the data were processed

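The authors mapped the reads to oryCun2.0 with TopHat and Bowtie, used eXpress to count those that aligned uniquely, and scaled the libraries with DESeq2. No versions were given in the sources used here. The deposited signal values are read counts divided by DESeq2 size factors, and multiplying back gave whole reads for 100% of values (tolerance 0.001), 724986 to 1226408 reads per library. The deposited tables also hold the authors' own fold changes and p-values, which were not used.

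Groups came from the labels. Each pair of groups was compared with limma 3.58.1 in R 4.3.3 on log2(value + 1), after filterByExpr of edgeR 4.0.16 (minimum of 10 reads), with Benjamini-Hochberg adjustment over all genes tested and a threshold of 0.05. A 3 against 3 exact permutation test cannot give a two-sided p below 0.1, so none was used for calls. Alternatives were pseudocounts of 0.5 and 5, no filter, TMM log2 CPM, edgeR, DESeq2 1.42.0, 1 fit on 9 libraries, a replicate block and leaving out each library. The method was tested on simulated data.

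Deviations of same-numbered libraries from their group means correlated, over 3812 genes, at 0.28, 0.14 and 0.19 between CLCS and healthy libraries and at 0.25, 0.33 and 0.30 between CLCS and untreated libraries, and at 0.29, 0.13 and -0.04 between untreated and healthy libraries. Correlations between unlike numbers were not computed, and the labels do not name animals. Whether equal numbers pair the libraries was thus not tested. Calls come from fits without a replicate block, and fits with the block are given as an alternative.

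Named genes are all 6 members, every called gene of a list, up to 4 other tested genes of each list by absolute log2 fold change, and the 3 nearest profiles of each member, of which 1 is not reported here. Others are marked as chosen after their values were seen. The members and lists were chosen with earlier results of these data known. Gene symbols are those of the tables, and neighbouring genes were read from RefSeq mOryCun1.1, where all 6 members matched. No coordinates are given, since that assembly differs from oryCun2.0.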

Additional observations from a re-analysis of the deposited data

How the results depend on the processing

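The log2 fold changes of the 6 genes in the 3 comparisons (18 results) were computed under 270 alternatives. Of these, 243 kept their direction and their side of the threshold, 6 newly passed it, 5 no longer passed it and 16 changed sign, and the cause was not tested. In untreated against healthy tissue, 89 genes were called, against 20 with no filter, 275 with DESeq2, 173 with 1 fit on 9 libraries and 2 to 7 when each library was left out. DESeq2 called 1 member there (IBSP, adjusted p = 0.00359), and leaving out a library gave 0 to 0. In CLCS against healthy tissue, 104 genes were called, against 13 with no filter, 243 with DESeq2 and 0 to 81 when each library was left out. The 1 member called became 0 with no filter (IBSP, adjusted p = 0.0983), 2 with a pseudocount of 5, with DESeq2 and with 1 fit on 9 libraries, and 0 to 2 when each library was left out. With the replicate block 2 members and 125 genes were called there, and the block changed no other call of a member. Between untreated and healthy tissue the block gave 94 genes and 0 members. The second member called was BGLAP in each case, with an adjusted p of 0.045, 0.0053, 0.0478 and 0.043 in that order. ALPL and DMP1 had the fewest reads of the members, at 6 to 86 reads per library. The SE against healthy tissue was nevertheless larger for SPP1 than for ALPL in both kinds of defect. How far low read counts limited the precision was not tested.

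The sign changes were all of differences that were not called. When each library was left out, the log2 fold change against healthy tissue ran from -0.042 to 1.11 for ALPL and from -0.83 to 0.15 for SPARC in untreated defects, and from -0.17 to 0.63 for SPARC in CLCS defects. In CLCS against untreated defects it ran from -0.066 to 1.08 for ALPL, from -0.49 to 0.47 for DMP1, from -0.42 to 0.61 for IBSP and from -0.47 to 0.32 for SPP1. With edgeR and TMM, DMP1 was at -0.017 and IBSP at -0.0088 there, and DMP1 was at -0.0047 with edgeR and size factors and at -0.0069 with DESeq2.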
